A study of Mus musculus with 12 samples.

Results

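The ABC transporters are a superfamily of membrane pumps and related ATPases, and the genes described here are those named Abca to Abcg in mouse macrophages, other than the cholesterol exporters Abca1 and Abcg1. Members were taken by gene name alone, and 30 of the 14264 genes in the tables are described: 8 of subfamily A, 7 of B, 6 of C, 3 of D, 1 of E, 3 of F and 2 of G. Other genes that the naming rule covers were not analysed here. The cells were mouse bone-marrow derived macrophages, labelled as isolated ex vivo, that carried either a control short hairpin RNA (shCTRL, genotype given as WT) or a hairpin RNA against the lysine acetyltransferase MOF (shMOF, genotype given as MOF depletion). Both kinds were left unstimulated or were given the bacterial product lipopolysaccharide (LPS) at 100 ng/ml for 3 h, which gave 4 groups of 3 libraries. The labels give no strain, age or sex and describe no further hairpin or rescue. They do not say whether the libraries of a group had separate sources, so p-values measure only the spread between these samples, which may be technical. The values are the authors' deposited comparisons of shMOF with shCTRL within each state, as log2 fold changes with ± giving the standard error (SE). Throughout, rose and fell mean higher and lower with shMOF than with shCTRL in the named state, at an adjusted p under 0.05. The tables hold no value per library, so no level per group is shown and the effect of LPS itself was not tested.

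An ABC protein couples the binding and hydrolysis of ATP, in a pair of nucleotide-binding domains, to the passage of a substrate across a membrane. Most of subfamily A moves lipids, B includes P-glycoprotein and several mitochondrial proteins, C exports conjugated and anionic compounds, and D carries fatty acids into peroxisomes or serves the lysosome. Subfamilies E and F have no membrane domain and act in translation, and G includes the breast cancer resistance protein. Macrophages use such pumps to handle lipid from engulfed cells and to release leukotrienes, cyclic nucleotides and glutathione.

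The knockdown and the cell type were checked first. Kat8, which encodes MOF, fell by 2.25 ± 0.10 unstimulated and fell by 2.31 ± 0.13 after LPS per the authors' deposited table. All 10 macrophage markers looked up were measured, with mean normalized counts from 17.8 to 259735, and 9 of them rose unstimulated and 7 after LPS. Of 10 neutrophil markers 3 were measured, with means of 6.69 to 182, and none of the mast cell, B cell, T and NK cell markers looked up was among the genes analysed here. All 5 markers of cycling cells fell unstimulated, and after LPS 4 fell while Mki67 rose. Of 5 progenitor markers 3 fell unstimulated and 2 after LPS, and of 4 fibroblast markers 3 rose in each state. In bulk samples fewer cells of a type and less RNA per cell cannot be told apart.

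More members were called after LPS than without it. In unstimulated cells 9 of 30 members passed an adjusted p of 0.05, 6 higher and 3 lower with shMOF, or 30%, where 39.1% of all genes were called. With fold changes centred on the median of all genes the split was 4 higher and 4 lower. At LPS 3 h 19 of 30 passed, 12 higher and 7 lower, or 63.3%, where 48.0% of all genes were called. Over all genes 21.3% were called higher and 17.8% lower unstimulated, and 28.1% higher and 20.0% lower after LPS. Abundant genes were called more often: adjusted over genes with means of 50 or more, 50.1% of genes were called unstimulated and 59.2% after LPS, beside 9 and 18 of the 25 members at that level. The members' median log2 fold change was 0.05 unstimulated and 0.13 after LPS, beside 0.03 and 0.03 over all genes. Regardless of sign the median change was 0.15 and 0.29, beside 0.21 and 0.25. Calls in both states were made for 6 members, 66.7% of those called unstimulated and 31.6% of those called after LPS, beside 65.5% and 54.4% over all genes. The same direction was called in both states for 4 members, Abcd2, Abca9, Abcb4 and Abcd3 (22.2% of all genes). Opposite directions were called for 2 members, Abcb1b and Abcc5 (3.94% of all genes), and 8 members were called in neither state.

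Levels spanned a wide range. The mean normalized count over libraries, divided by the kilobases of annotated exon so that genes can be compared, ran from 0.309 per kb for Abca13 to 958 per kb for Abcf1. After Abcf1 came Abcf2 with 859.5 per kb, Abcc3 with 654 and Abce1 with 549.7. The P-glycoprotein genes were unequal, Abcb1b with 226 per kb and Abcb1a with 33.1. Abca9 and Abcd2, the members called at more than a 2-fold change in both states, were low, with 26.2 and 19.8 per kb (percentiles 27.3 and 23.8 of all genes). Abca6, Abcc2 and Abca13 lay at 2.27 per kb or less. Abca13, with a mean normalized count of 6.10, is named here and not read further. These levels mix all groups, and no order between neighbouring genes was tested.

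**Figure D1:**
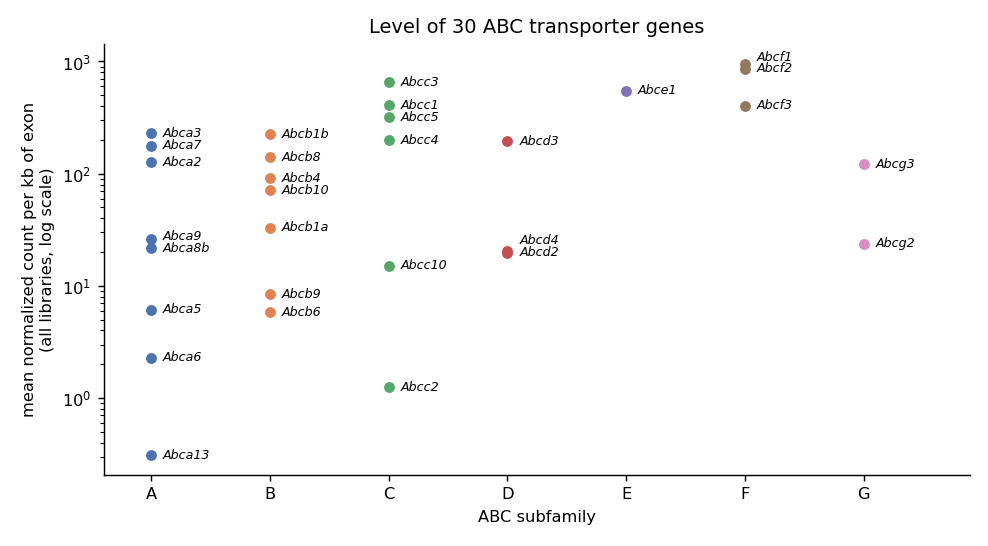
Level of each of the 30 ABC genes by subfamily, as the authors' mean normalized count over libraries per kb of exon in GENCODE M21, on a log scale; 1 point is 1 gene. Levels run from 0.309 per kb (Abca13) to 958 per kb (Abcf1), and the translation ATPases of subfamilies E and F all lie at 404.7 per kb or more.

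Subfamily D, of peroxisomes and lysosomes, held the widest rise and was split. Abcd2 encodes a carrier of very long-chain fatty acids into the peroxisome. Abcd2 (ENSMUSG00000055782.8, chromosome 15 from 91145871 to 91191799, minus strand, GRCm38) rose by 1.68 ± 0.14 (adjusted p = 1.07e-32) unstimulated per the authors' deposited table. After LPS it rose by 1.69 ± 0.22 (adjusted p = 1.17e-13) by the same authors' deposited table. These are 3.20-fold and 3.23-fold of the control level, and the estimates lay 0.01 apart, with a 95% interval from -0.49 to 0.52.

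The other D members described were lower or not called. Abcd3, which encodes the peroxisomal membrane protein PMP70, fell by 0.21 ± 0.05 (adjusted p = 6.48e-05) unstimulated and fell by 0.13 ± 0.05 (adjusted p = 0.0200) after LPS per the authors' deposited table. Abcd4, a lysosomal protein needed for the release of cobalamin, had -0.08 ± 0.11 (adjusted p = 0.625) unstimulated and fell by 0.39 ± 0.14 (adjusted p = 0.0167) after LPS per the authors' deposited table. Of 32 measured genes of peroxisomal fatty acid oxidation and import, 11 rose and 7 fell unstimulated, 8 rose and 11 fell after LPS, and the medians were 0.05 and -0.09. That made 56.25% of the list called unstimulated and 59.4% after LPS, beside 39.1% and 48.0% of all genes. Among genes with means of 50 or more, adjusted over those genes, 50.1% and 59.2% were called. The median mean normalized count of the list was 860, beside 446 over all genes. Eci2, an isomerase of fatty acid oxidation, fell by 0.78 ± 0.06 unstimulated and fell by 0.36 ± 0.05 after LPS per the authors' deposited table. Acsl1, which activates long-chain fatty acids, fell by 0.52 ± 0.05 unstimulated and fell by 0.26 ± 0.04 after LPS per the authors' deposited table. Slc25a17, a peroxisomal carrier of cofactors, had 0.00 ± 0.07 unstimulated and rose by 0.52 ± 0.06 after LPS per the authors' deposited table. Pex19, an import receptor for peroxisomal membrane proteins, fell by 0.29 ± 0.05 unstimulated and fell by 0.37 ± 0.05 after LPS per the authors' deposited table. Genes of this list thus lay on both sides of 0 beside the rise of Abcd2.

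**Figure D2:**
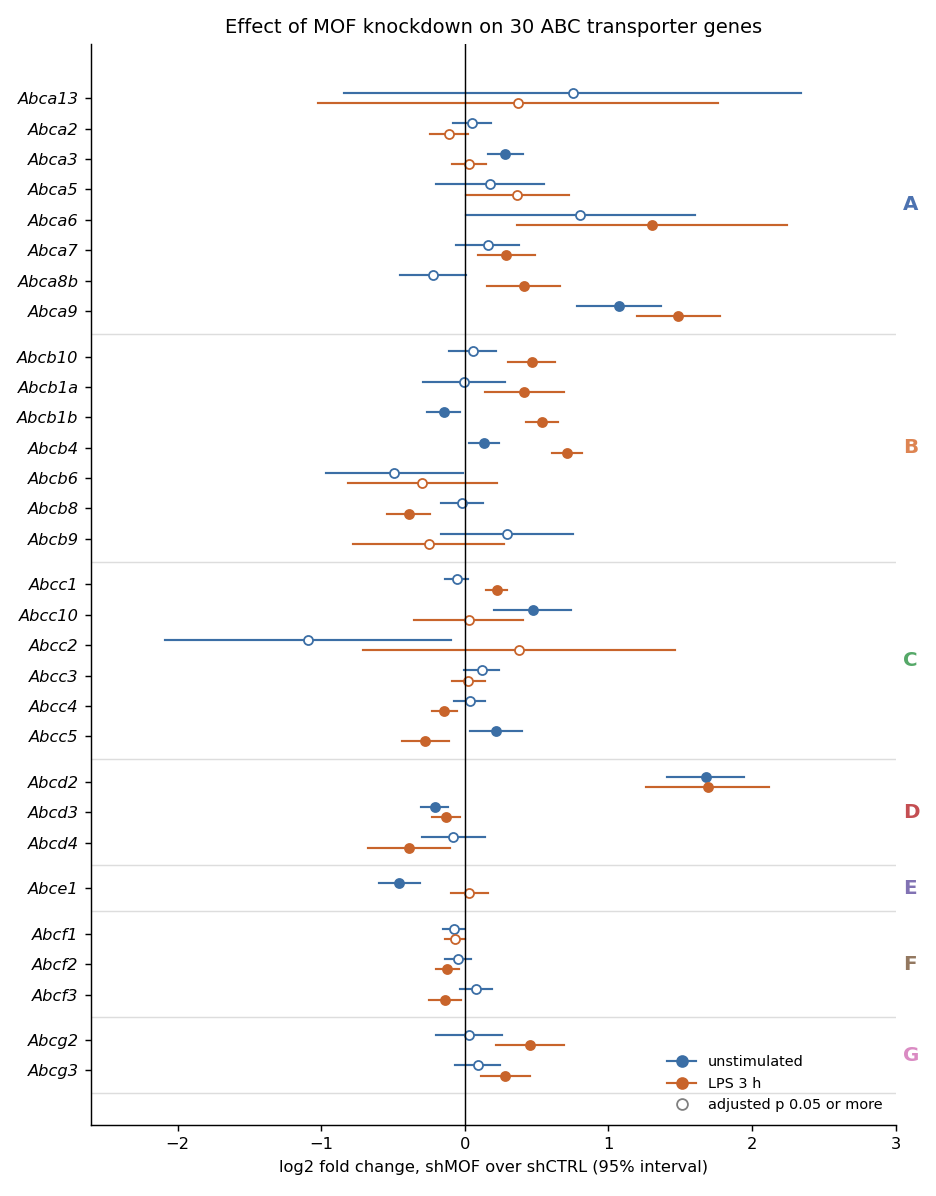
Log2 fold change, shMOF over shCTRL, of each of the 30 ABC genes in unstimulated cells (blue) and at LPS 3 h (orange), with 95% intervals from the deposited SE; filled points have an adjusted p under 0.05. Abcd2 lies at 1.68 and 1.69, Abca9 lies above 1 in both states, and the points of Abcb1b and Abcc5 are filled on opposite sides of 0.

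In the lipid transporter subfamily A the called changes were all rises, 2 of 8 unstimulated and 4 of 8 after LPS, where 21.3% and 28.1% of all genes were called higher. The subfamily's medians were 0.23 and 0.37. Abca9 (ENSMUSG00000041797.7, chromosome 11 from 110100749 to 110168196, minus strand), a little-studied relative of Abca1, rose by 1.07 ± 0.15 (adjusted p = 1.07e-11) unstimulated and rose by 1.49 ± 0.15 (adjusted p = 2.11e-22) after LPS per the authors' deposited table. That is 2.11-fold and 2.81-fold, and the difference between states of 0.41 (95% interval 0.00 to 0.83) did not pass (adjusted p = 0.126). Abca6, a relative of Abca9, had 0.81 ± 0.41 (adjusted p = 0.104) unstimulated and rose by 1.30 ± 0.48 (adjusted p = 0.0155) after LPS per the authors' deposited table, at a mean normalized count of only 12.3. Abca8b, of the same group, had -0.22 ± 0.12 (adjusted p = 0.124) unstimulated and rose by 0.41 ± 0.13 (adjusted p = 0.00475) after LPS per the authors' deposited table. The effect on Abca8b differed between states (0.63 ± 0.18, adjusted p = 0.00192). Of 4 fibroblast markers 3 also rose in each state, Col1a1, Col1a2 and Col3a1, at mean normalized counts of 62.8 to 667. Of these Col1a1 rose by 0.42 ± 0.13 unstimulated and rose by 0.52 ± 0.12 after LPS per the authors' deposited table. Macrophage markers rose as well, 9 of 10 unstimulated and 7 of 10 after LPS. The part of either cell type in the result was not tested.

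Abca8b, Abca9, Abca6 and Abca5 are neighbours on chromosome 11, within 406 kb from 109932190 to 110337716 of GRCm38, all on the minus strand. Abca5, a lysosomal protein at the end of this array, had 0.18 ± 0.19 (adjusted p = 0.512) unstimulated and had 0.36 ± 0.18 (adjusted p = 0.0889) after LPS per the authors' deposited table. After LPS all 4 estimates were above 0, and 3 were called higher, where 28.1% of all genes were. Among the 3 measured protein-coding genes on each side, Prkar1a (263 kb away) rose by 0.13 ± 0.03 after LPS per the authors' deposited table. Slc39a11 (2907 kb) rose by 0.20 ± 0.05 and Kcnj2 (728 kb) fell by 0.38 ± 0.12 after LPS per the authors' deposited table. Unstimulated, Kcnj2 rose by 0.62 ± 0.10 and Wipi1 (320 kb) rose by 0.18 ± 0.08 per the authors' deposited table. The other flanking genes were not called unstimulated. Map2k6, the nearest at 61.4 kb, had -0.16 ± 0.23 after LPS per the authors' deposited table. These flanking genes thus went both ways, at distances of 61.4 to 2907 kb from the array. No stretch of 100 bases in the transcripts of Abca5, Abca6, Abca8b or Abca9 occurs in the transcripts of another gene. Exons of Abca8b do overlap the antisense gene Gm11697 over 241 bases, 3.25% of their length.

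The other A members moved less. Abca3, known for loading surfactant lipid into lamellar bodies of the lung, rose by 0.28 ± 0.06 (adjusted p = 5.04e-05) unstimulated and had 0.03 ± 0.06 (adjusted p = 0.712) after LPS per the authors' deposited table. Its effect differed between states (-0.25 ± 0.09, adjusted p = 0.0176). Exons of Abca3 overlap the noncoding gene D330041H03Rik on the opposite strand over 914 bases, 9.75% of their length, and reads of the pair cannot be told apart unless strand was used. Abca7, which moves phospholipid and has been tied to phagocytosis, had 0.16 ± 0.11 (adjusted p = 0.274) unstimulated and rose by 0.29 ± 0.10 (adjusted p = 0.0114) after LPS per the authors' deposited table. Abca2, of late endosomes and lysosomes, was called in neither state, with 0.05 ± 0.07 and -0.11 ± 0.07 per the authors' deposited table.

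The efflux genes of subfamily B all rose after LPS. Abcb1a and Abcb1b encode the mouse forms of P-glycoprotein, and Abcb4 encodes a pump that moves phosphatidylcholine to the outer membrane leaflet. The group lies on the plus strand of chromosome 5, within 299 kb from 8660077 to 8959231 of GRCm38. Abcb1b (ENSMUSG00000028970.9) fell by 0.14 ± 0.06 (adjusted p = 0.0362) unstimulated and rose by 0.54 ± 0.06 (adjusted p = 5.63e-21) after LPS per the authors' deposited table. That is 0.904-fold and 1.45-fold of the control level. Abcb4 (ENSMUSG00000042476.12) rose by 0.13 ± 0.05 (adjusted p = 0.0377) unstimulated and rose by 0.71 ± 0.05 (adjusted p = 4.23e-37) after LPS, or 1.64-fold, per the authors' deposited table. Centring ended the unstimulated call of Abcb4 (0.10, adjusted p = 0.127). Abcb1a (ENSMUSG00000040584.8) had -0.01 ± 0.15 (adjusted p = 0.972) unstimulated and rose by 0.42 ± 0.14 (adjusted p = 0.00811) after LPS per the authors' deposited table. The effect differed between states for Abcb1b (0.68 ± 0.08, adjusted p = 1.96e-15) and for Abcb4 (0.58 ± 0.08, adjusted p = 1.90e-12). For Abcb1a the difference did not pass (0.42 ± 0.20, adjusted p = 0.0991).

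The P-glycoprotein genes can share reads, since 9.03% of the 100-base stretches of Abcb1a transcripts also occur in Abcb1b, and 6.04% the other way. Over all other genes 13.4% of the stretches of Abcb1a are shared. Its exons overlap the gene Gm42686 on the opposite strand over 10.1% of their length. Beyond Abcb4, the peroxisomal acyltransferase gene Crot rose by 0.20 ± 0.05 unstimulated and had 0.09 ± 0.06 after LPS per the authors' deposited table. Farther out, Tmem243 (141 kb away) rose by 0.48 ± 0.09 and Dmtf1 (160 kb) rose by 0.27 ± 0.06 after LPS per the authors' deposited table. On the other side Dbf4, a regulatory subunit of a replication kinase, fell by 0.89 ± 0.09 unstimulated and fell by 0.58 ± 0.10 after LPS per the authors' deposited table. Beside the ABC genes, Tmem243 and Dmtf1 were thus also called higher after LPS, as were 28.1% of all genes. The effect also differed between states for Tmem243 (0.72, adjusted p = 2.95e-06) and Dmtf1 (0.27, adjusted p = 0.0188). The same test called 30.6% of all genes. It did not pass for Crot, Dbf4, Slc25a40 or Rundc3b. A state-dependent effect was thus not particular to the ABC genes of this region.

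**Figure D3:**
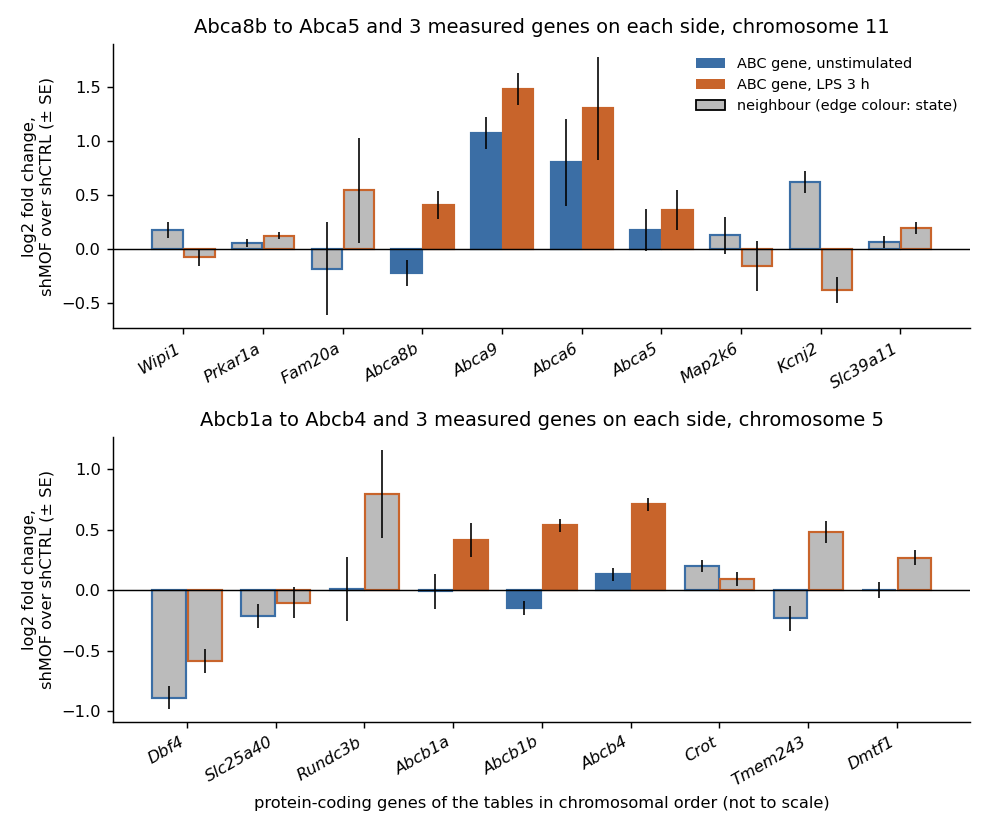
Log2 fold change, shMOF over shCTRL, with the SE as error bars, of the ABC gene groups on chromosomes 11 and 5 and of the 3 nearest measured protein-coding genes on each side, in chromosomal order and not to scale. The 7 ABC genes all have LPS 3 h values above 0. The neighbours, in grey and up to 2907 kb away, lie on both sides of 0.

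Promoters from both chromosomal groups are shown for Abcb1b, Abcb4, Abca8b and Abca9, which were called higher after LPS. Each is the 250 bases before the start of transcription in RefSeq, build GRCm38.p6, read on the gene's own strand. Capitals mark matches, on either strand, of 4 motifs that were searched: the GC box GGGCGG, the CCAAT box, the TATA box TATAAA and GAGGAAGT, which holds the core bound by PU.1. The windows lie at chr5:8797897-8798146 (plus strand) for Abcb1b, chr5:8893471-8893720 (plus strand) for Abcb4, chr11:109995846-109996095 (minus strand) for Abca8b and chr11:110168154-110168403 (minus strand) for Abca9.
Abcb1b: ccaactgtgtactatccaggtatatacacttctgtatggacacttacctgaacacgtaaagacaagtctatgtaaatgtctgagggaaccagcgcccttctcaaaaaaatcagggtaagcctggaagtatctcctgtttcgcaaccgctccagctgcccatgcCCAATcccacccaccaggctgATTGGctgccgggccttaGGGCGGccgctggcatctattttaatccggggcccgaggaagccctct
Abcb4: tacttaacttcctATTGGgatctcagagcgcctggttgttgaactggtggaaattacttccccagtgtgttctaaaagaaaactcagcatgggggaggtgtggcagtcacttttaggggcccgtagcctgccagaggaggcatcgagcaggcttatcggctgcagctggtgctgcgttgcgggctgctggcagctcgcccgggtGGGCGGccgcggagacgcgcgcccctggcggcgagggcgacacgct
Abca8b: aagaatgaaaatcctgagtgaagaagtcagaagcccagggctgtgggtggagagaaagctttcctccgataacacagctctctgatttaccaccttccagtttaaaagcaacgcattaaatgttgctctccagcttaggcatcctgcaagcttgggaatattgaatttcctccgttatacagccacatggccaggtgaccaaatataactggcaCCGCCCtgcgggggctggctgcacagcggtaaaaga
Abca9: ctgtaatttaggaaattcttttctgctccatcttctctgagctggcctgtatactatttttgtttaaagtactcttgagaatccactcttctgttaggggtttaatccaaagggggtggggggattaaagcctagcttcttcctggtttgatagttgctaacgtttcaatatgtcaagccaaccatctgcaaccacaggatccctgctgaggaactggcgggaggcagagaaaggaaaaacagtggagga
In Abcb1b and Abcb4 a GC box begins 48 and 46 bases before the start. Abcb1b also holds a CCAAT box on each strand, 87 and 66 bases before it, and Abcb4 holds 1 at 237 bases. Abca8b holds 1 GC box, 36 bases before the start, and none of the motifs occurs in the window of Abca9. Abcb1a and Abca6, also called higher after LPS, are not shown. Abca6 has no entry. The window of Abcb1a (chr5:8566841-8567090) holds none of the motifs, and the bases that follow it were not found in the gene's annotated transcripts. Over all 32851 promoter windows of this length, 32.7% hold the GC box, 33.8% the CCAAT box, 12.4% the TATA box and 2.44% the PU.1 motif. The 24 members with an entry have 30 windows, of which 18 hold the GC box, 8 the CCAAT box, 1 the TATA box and 2 the PU.1 motif. Their median GC content was 61.0%, beside 52.4% over all windows, and its part in these counts was not tested. These are matches of letters and not measured sites.

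Among the mitochondrial and other B members the directions differed. Abcb10, an inner-membrane protein that aids haem synthesis, had 0.05 ± 0.08 (adjusted p = 0.660) unstimulated and rose by 0.46 ± 0.08 (adjusted p = 1.25e-07) after LPS per the authors' deposited table. Abcb8, another protein of the mitochondrial inner membrane, had -0.02 ± 0.07 (adjusted p = 0.884) unstimulated and fell by 0.39 ± 0.08 (adjusted p = 1.60e-06) after LPS per the authors' deposited table. The effect differed between states for both, upward for Abcb10 (0.41 ± 0.12, adjusted p = 0.00297) and downward for Abcb8 (-0.37 ± 0.11, adjusted p = 0.00254). Exons of Abcb10 overlap the antisense gene Gm45890 over 10.3% of their length. Abcb6, linked to porphyrin transport, and Abcb9, a lysosomal peptide pump, were called in neither state at mean normalized counts of 30.99 and 47.2. Of the exon length of Abcb6 55.2% is shared with the annotated gene Gm29253 on the same strand, which leaves its count uncertain.

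Of 26 measured genes of iron-sulfur cluster and haem synthesis, 5 rose and 7 fell unstimulated, 3 rose and 8 fell after LPS, and the medians were 0.03 and -0.13. Isca2, which helps assemble iron-sulfur clusters, fell by 0.94 ± 0.08 unstimulated and fell by 0.89 ± 0.08 after LPS per the authors' deposited table. Its partner Isca1 fell by 0.40 ± 0.07 unstimulated and fell by 0.55 ± 0.07 after LPS per the authors' deposited table. Slc25a28, a mitochondrial iron carrier, had 0.04 ± 0.08 unstimulated and rose by 0.50 ± 0.07 after LPS per the authors' deposited table. Alad, the enzyme that forms porphobilinogen, fell by 0.26 ± 0.10 unstimulated and fell by 0.57 ± 0.12 after LPS per the authors' deposited table. Over all genes 21.3% were called higher and 17.8% lower unstimulated, and 28.1% and 20.0% after LPS.

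Subfamily C, the multidrug resistance-associated exporters, changed by small amounts in both directions. Abcc1, the exporter of leukotriene C4 and glutathione conjugates, had a mean normalized count of 6119. Abcc1 had -0.06 ± 0.04 (adjusted p = 0.297) unstimulated and rose by 0.22 ± 0.04 (adjusted p = 1.69e-08) after LPS per the authors' deposited table, and this effect differed between states (0.28 ± 0.06, adjusted p = 7.50e-06). Abcc5, an exporter of cyclic nucleotides, rose by 0.22 ± 0.09 (adjusted p = 0.0466) unstimulated and fell by 0.27 ± 0.08 (adjusted p = 0.00329) after LPS per the authors' deposited table. Its effect differed between states (-0.49 ± 0.12, adjusted p = 5.82e-04), and centring ended the unstimulated call (0.19, adjusted p = 0.0966). Abcc4, which exports cyclic AMP and prostaglandins, had 0.03 ± 0.06 (adjusted p = 0.680) unstimulated and fell by 0.14 ± 0.05 (adjusted p = 0.00577) after LPS per the authors' deposited table. The difference for Abcc4 passed narrowly (-0.18 ± 0.07, adjusted p = 0.0499), and not after centring (adjusted p = 0.0510) or with adjustment over every gene (adjusted p = 0.0545). Abcc10, a broad drug exporter, rose by 0.47 ± 0.14 (adjusted p = 0.00214) unstimulated and had 0.03 ± 0.19 (adjusted p = 0.928) after LPS per the authors' deposited table.

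Abcc3, an exporter of glucuronides, was called in neither state, with 0.12 ± 0.06 and 0.02 ± 0.06 per the authors' deposited table. Abcc2, the related pump of the bile canaliculus, had -1.09 ± 0.51 (adjusted p = 0.0761) unstimulated and had 0.38 ± 0.55 (adjusted p = 0.610) after LPS per the authors' deposited table, at a mean normalized count of 10.6. Its difference of 1.47 had a 95% interval from -0.01 to 2.94. Of 14 measured genes that supply glutathione and leukotrienes, 3 rose and 7 fell unstimulated, 6 rose and 3 fell after LPS, and the medians were -0.17 and 0.14. In all, 71.4% of this list was called unstimulated and 64.3% after LPS, beside 39.1% and 48.0% of all genes. Among genes with means of 50 or more the shares were 50.1% and 59.2%. Alox5ap, which presents arachidonic acid for leukotriene synthesis, rose by 0.32 ± 0.04 unstimulated and rose by 0.60 ± 0.04 after LPS per the authors' deposited table. Gclc, the catalytic subunit of the first enzyme of glutathione synthesis, fell by 0.52 ± 0.07 unstimulated and fell by 0.36 ± 0.07 after LPS per the authors' deposited table. Slc7a11, which imports cystine, fell by 0.39 ± 0.15 unstimulated and rose by 0.60 ± 0.11 after LPS per the authors' deposited table. Ggt5, which cleaves leukotriene C4, rose by 1.11 ± 0.21 unstimulated and rose by 0.92 ± 0.23 after LPS per the authors' deposited table. After LPS 6 of the 14 supply genes were called higher, Alox5ap and Slc7a11 among them, where 28.1% of all genes were. The 3 lower supply genes were Gclc, Gclm and Mgst2, which also fell unstimulated. Of the 6 C members 1 was called higher after LPS, Abcc1, and 2 were called lower, Abcc4 and Abcc5. Ltc4s was called in neither state, with 0.15 ± 0.11 unstimulated and 0.01 ± 0.10 after LPS per the authors' deposited table.

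**Figure D4:**
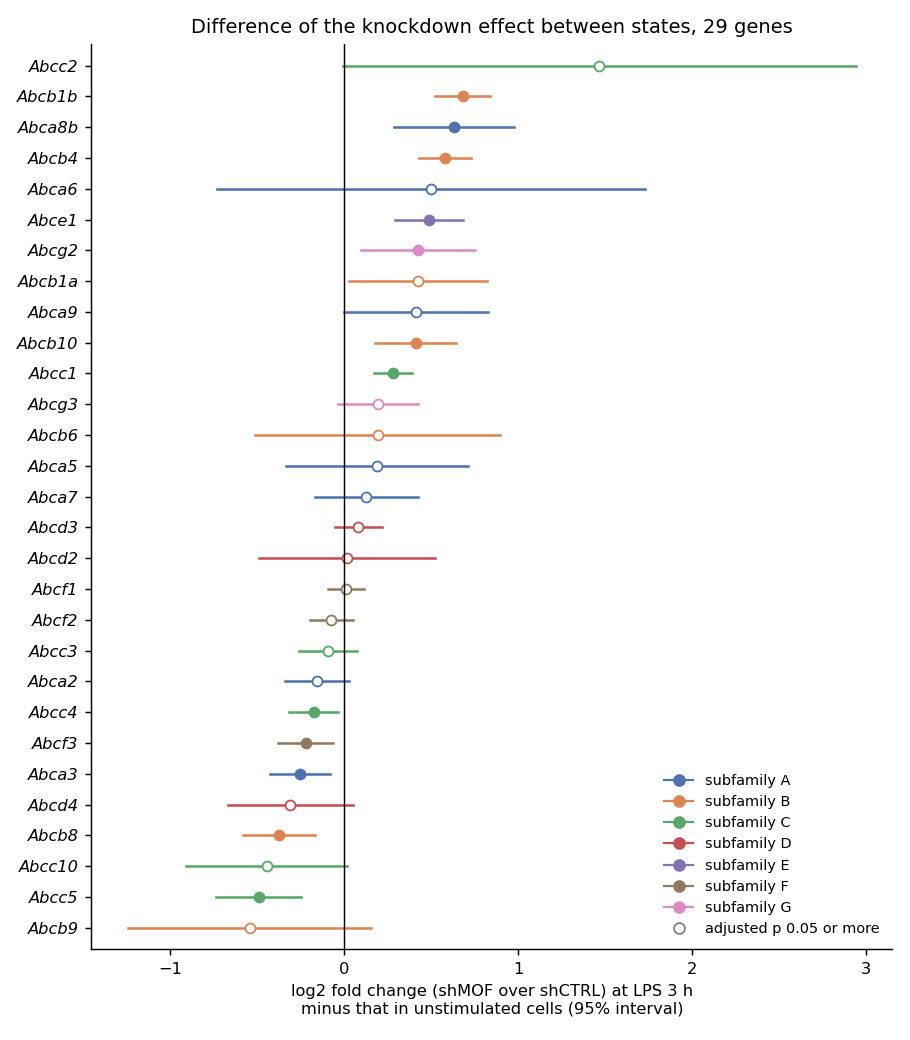
Difference of the knockdown effect, the log2 fold change at LPS 3 h minus that in unstimulated cells, for the 29 ABC genes with a mean normalized count of 10 or more, with 95% intervals; colours give the subfamily and filled points an adjusted p under 0.05. Abcb1b at 0.68, Abca8b at 0.63 and Abcb4 at 0.58 lead the called genes above 0, and Abcc5 at -0.49 and Abcb8 at -0.37 those below.

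In subfamilies E and F, the ATPases of translation, Abce1 fell in unstimulated cells. Abce1 splits ribosomes after termination so that they can be used again. Abce1 (ENSMUSG00000058355.6, chromosome 8 from 79683462 to 79711740, minus strand) fell by 0.46 ± 0.07 (adjusted p = 8.89e-09) unstimulated, to 0.729-fold, and had 0.03 ± 0.07 (adjusted p = 0.737) after LPS per the authors' deposited table. The effect differed between states (0.49 ± 0.10, adjusted p = 1.18e-05). Gspt1 and Etf1 encode the release factors that act just before Abce1. Gspt1 fell by 0.38 ± 0.05 unstimulated and rose by 0.16 ± 0.04 after LPS per the authors' deposited table, and the effect differed between states by 0.54 (adjusted p = 1.39e-15). Etf1 fell by 0.21 ± 0.04 unstimulated and rose by 0.25 ± 0.03 after LPS per the authors' deposited table, and the effect differed between states by 0.46 (adjusted p = 5.03e-18). Hbs1l and Pelo, which encode a related pair that rescues stalled ribosomes, were named after their values were seen. Hbs1l fell by 0.20 ± 0.06 unstimulated and fell by 0.20 ± 0.05 after LPS, and Pelo had -0.13 ± 0.09 unstimulated and had -0.11 ± 0.09 after LPS, per the authors' deposited table. Neither difference passed, with 0.00 (adjusted p = 0.983) for Hbs1l and 0.02 (adjusted p = 0.939) for Pelo. Of 23 measured translation partners, 1 rose and 6 fell unstimulated, 7 rose and 8 fell after LPS, and the medians were -0.10 and -0.09. Called shares were 30.4% unstimulated and 65.2% after LPS, beside 39.1% and 48.0% of all genes. Among genes with means of 50 or more the shares were 50.1% and 59.2%. The effect on this list differed between states for 8 genes upward and 5 downward. That is 56.5% of the list, where 30.6% of all genes differed, 18.2% upward and 12.4% downward. Eif2s3x, a subunit of the initiator tRNA carrier, fell by 0.54 ± 0.06 unstimulated and fell by 0.14 ± 0.05 after LPS per the authors' deposited table. Eif3j1, an initiation factor subunit, had -0.05 ± 0.07 unstimulated and rose by 0.45 ± 0.06 after LPS per the authors' deposited table. The effect differed upward between states for both, by 0.39 for Eif2s3x (adjusted p = 1.84e-05) and 0.50 for Eif3j1 (adjusted p = 4.59e-06). It did so too for Eif2s1 (0.38, adjusted p = 6.00e-06) and Eif2s2 (0.40, adjusted p = 9.55e-08). Eif2b4 went downward (-0.48, adjusted p = 4.02e-04). An upward difference was thus not particular to the release factors.

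None of the 3 F genes was called unstimulated by the authors' DESeq2 test (1 at an unadjusted p under 0.05), and 2 fell after LPS. Over all genes 39.1% were called unstimulated and 20.0% were called lower after LPS. Abcf2 had -0.05 ± 0.05 (adjusted p = 0.438) unstimulated and fell by 0.12 ± 0.04 (adjusted p = 0.0110) after LPS per the authors' deposited table. Abcf3, related to a yeast activator of the kinase Gcn2, had 0.08 ± 0.06 (adjusted p = 0.284) unstimulated and fell by 0.14 ± 0.06 (adjusted p = 0.0292) after LPS per the authors' deposited table, and the effect differed between states (-0.22 ± 0.08, adjusted p = 0.0240). Abcf1, which binds the initiation factor eIF2, had -0.08 ± 0.04 (adjusted p = 0.0957) unstimulated and had -0.07 ± 0.04 (adjusted p = 0.101) after LPS per the authors' deposited table. Centring turned both values of Abcf1 into calls, at -0.11 (adjusted p = 0.0152) and -0.10 (adjusted p = 0.0140).

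Both G members rose after LPS and neither was called unstimulated (0 of 2 also at an unadjusted p under 0.05 in the authors' DESeq2 test). Over all genes 28.1% were called higher after LPS and 39.1% were called unstimulated. Abcg2, the breast cancer resistance protein, exports drugs, urate and porphyrins. Abcg2 had 0.03 ± 0.12 (adjusted p = 0.872) unstimulated and rose by 0.46 ± 0.12 (adjusted p = 6.00e-04) after LPS per the authors' deposited table, and the effect differed between states (0.43 ± 0.17, adjusted p = 0.0399). Abcg3, its rodent relative, had 0.09 ± 0.08 (adjusted p = 0.407) unstimulated and rose by 0.28 ± 0.09 (adjusted p = 0.00306) after LPS per the authors' deposited table, while the difference did not pass (0.19 ± 0.12, adjusted p = 0.209). No 100-base stretch of either occurs in the transcripts of another gene.

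Over all subfamilies the knockdown effect differed between states for 12 of the 29 members with a mean of 10 or more, or 41.4%, where 30.6% of all 12994 genes tested did. The effect was higher after LPS in 7 members (18.2% of all genes) and lower in 5 (12.4%). Across the 29 members the effects in both states had Pearson's r = 0.63 and Spearman's rho = 0.29, beside 0.49 and 0.43 across all genes tested. This is a description over genes, which share libraries and are not replicates. Signs were shared by 19 of 30 members (63.3%), beside 65.3% of all genes.

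Of 14 measured nuclear receptors and other factors known to act on ABC genes, 7 rose and 1 fell unstimulated, 7 rose and 6 fell after LPS, and the medians were 0.15 and 0.05. The share called was 57.1% unstimulated and 92.9% after LPS, beside 39.1% and 48.0% of all genes. Among genes with means of 50 or more the shares were 50.1% and 59.2%. Srebf2, the regulator of sterol synthesis, rose by 0.57 ± 0.06 unstimulated and rose by 0.59 ± 0.06 after LPS per the authors' deposited table. Nr1h3, the liver X receptor alpha, had 0.06 ± 0.06 unstimulated and fell by 0.36 ± 0.05 after LPS per the authors' deposited table. Pparg, a fatty acid receptor gene, had 0.09 ± 0.07 unstimulated and rose by 0.49 ± 0.07 after LPS per the authors' deposited table. Hif1a, of the hypoxia response, fell by 0.35 ± 0.05 unstimulated and fell by 0.13 ± 0.04 after LPS per the authors' deposited table. Opposite directions were called for 4 of the 14, Ppard, Rxra, Tfeb and Rxrb, beside 3.94% of all genes. Each of these rose unstimulated and fell after LPS, Rxra by 0.35 ± 0.06 and 0.38 ± 0.07 per the authors' deposited table. The effect differed between states for 9 of the 14, 4 upward and 5 downward. That is 64.3%, where 30.6% of all genes differed. Tap1 and Tap2, ABC genes outside the naming rule, encode the pump that supplies peptides to MHC class I. Tap1 rose by 0.38 ± 0.15 unstimulated and rose by 0.39 ± 0.13 after LPS, and Tap2 rose by 0.39 ± 0.10 unstimulated and rose by 0.23 ± 0.09 after LPS, per the authors' deposited table.

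**Figure D5:**
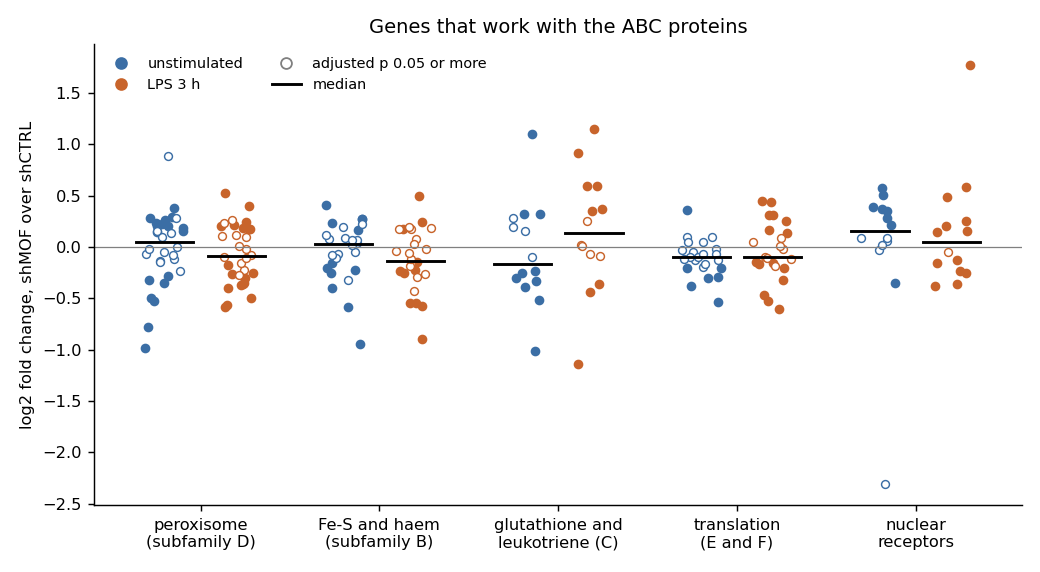
Log2 fold change, shMOF over shCTRL, of the genes in 5 lists that work with the ABC proteins, unstimulated (blue) and at LPS 3 h (orange); 1 point is 1 gene, filled at an adjusted p under 0.05, and black lines are medians. Medians stay between -0.17 and 0.15, with genes on both sides of 0 in every list.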

How the data were processed

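RNA was measured in 12 libraries in 4 groups of 3, made with a stranded mRNA kit per the labels' protocol. Per the submitters' processing notes the authors used DESeq2 and mm10. The sources used here do not give the aligner, the counter, the annotation or whether strand was used in counting. Per the file headers, the authors deposited for each knockdown comparison a mean normalized count (a signal, identical in both tables), a log2 fold change with its SE, a Wald statistic (a score, the fold change over its SE), a p-value and an adjusted p-value. These were used as deposited, at a threshold of 0.05. At LPS 3 h 277 genes carry no adjusted p and stayed out of the shares. Library depth is unknown, so the SE alone gives the precision. For the difference between states, 1 deposited log2 fold change was subtracted from the other, the result was divided by its combined SE (errors taken as uncorrelated), and the p (normal, two-sided) was adjusted by Benjamini-Hochberg over 12994 genes with means of 10 or more. The procedure was tested on simulated data. Of 14264 gene IDs 14214 matched GENCODE M21. Values are given for each member called in either state or for the difference, and for the 4 genes of each pathway list with the smallest p in either state. A few further genes of these lists were named after their values were seen. The lists cover ABC genes with other symbols (2 of 3 measured), peroxisomal, iron-sulfur and haem, glutathione and leukotriene, translation and nuclear receptor genes, and cell type markers. Dendritic cell (1 of 7 measured), erythroid (1 of 8) and megakaryocyte markers (2 of 4) each had 1 gene higher after LPS, Zbtb46, Epor and Pf4, and the last 2 rose unstimulated as well. Some genes that the naming rule takes are not reported here and are in no count of members. Members and lists were chosen with earlier results of these data known. Alternatives were centring, other sets for adjustment, stricter thresholds, wider SE and correlated errors. Python 3.11.15, pandas 2.3.3 and scipy 1.17.1 were used.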

Additional observations from a re-analysis of the deposited data

Results flagged for a closer look

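By the test of the difference itself, the knockdown effect was not the same at LPS 3 h and in unstimulated cells for 12 members. It was higher after LPS by 0.68 on the log2 scale for Abcb1b, 0.63 for Abca8b, 0.58 for Abcb4, 0.49 for Abce1, 0.43 for Abcg2, 0.41 for Abcb10 and 0.28 for Abcc1. It was lower after LPS, with differences of -0.49 for Abcc5, -0.37 for Abcb8, -0.25 for Abca3, -0.22 for Abcf3 and -0.18 for Abcc4. The same test called 30.6% of all genes.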

How the results depend on the processing

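No paired analysis was possible because the tables hold no values per library, and leaving out each replicate was not run for the same reason. The numbers of members called stayed within 1.5 times of those reported after centring on the median, after adjustment over other sets of genes and, for the difference, with an error correlation of 0.3. They moved under stricter rules. At a threshold of 0.01, 3 members were lower after LPS and 2 had a lower difference. With a minimum log2 change of 1 the counts were 2 (2 higher, 0 lower) unstimulated, 3 (3 higher, 0 lower) after LPS and 0 (0 higher, 0 lower) for the difference. At an unadjusted p under 0.05 the counts of 0 became 1 lower unstimulated (Abcc2), and stayed 0 lower after LPS and 0 for the difference. Against a null change of 0.25 in size the counts were 2 (2 higher, 0 lower), 4 (4 higher, 0 lower) and 2 (2 higher, 0 lower), and the lower ones at an unadjusted p under 0.05 were 1 (Abce1), 0 and 0. With SE widened 1.5 times they were 5 (3 higher, 2 lower), 8 (7 higher, 1 lower) and 4 (4 higher, 0 lower), the last with 2 (Abcc5 and Abcb8) lower at an unadjusted p under 0.05. Centring turned the sign of 2 uncalled values after LPS, Abcc3 to -0.0059 and Abcc10 to -0.0035. All counts rest on the authors' DESeq2 fold changes, since no count table was used here.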
